A study of Mus musculus with 6 samples.

Results

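The microRNA processing and silencing machinery was taken as 10 genes chosen by symbol, *Drosha*, *Dgcr8*, *Xpo5*, *Dicer1*, *Tarbp2*, *Ago1*, *Ago2*, *Ago3*, *Tnrc6a* and *Tnrc6b*, out of 55341 genes listed. All 10 were found and all 10 were among the 16017 genes with enough counts to be tested. RNA from the aorta of 3 miRNA-26b-/- mice (libraries M2626, M2627 and M2628) and 3 miRNA-26b+/+ mice (M2629, M2630 and M2631) was sequenced, with 25706728 to 33345037 counts assigned to genes per library. The mice were 8 weeks old and on chow diet, with the strain given as C57BL/6NCrl in the labels and as a C57BL/6 background in the methods. The study also describes the strains as first established on a mixed background of 129/Sv and C57BL/6. The knockout was made in 129/Sv embryonic stem cells, the allele was deleted with tamoxifen and CreERT2 and CreERT2 was then bred out. The labels call the control mice naive, and do not say whether they had received tamoxifen.

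MicroRNAs are cut from primary transcripts in the nucleus by the microprocessor, in which the nuclease Drosha works with the RNA-binding protein Dgcr8. Exportin-5, encoded by *Xpo5*, carries the hairpin to the cytoplasm, where Dicer and its partner Tarbp2 trim it to a duplex. An Argonaute protein keeps one strand and pairs with sites in messenger RNAs, and the Tnrc6 (GW182) proteins bind Argonaute and recruit the deadenylases that silence the message. The question asked of these data was whether the transcripts of this machinery differed in an aorta that lacked 1 of its microRNAs.

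None of the 10 genes passed the test between the genotypes with all libraries, which does not show that their levels were equal. With the quasi-likelihood test of edgeR, 0 of 10 had an adjusted p under 0.05, against 0.00624% of all genes tested. At an unadjusted p under 0.05 the count was also 0 of 10, against 6.47% of all genes. It was 0 of 10 with DESeq2 and with limma voom too, which called 5.28% and 5.29% of all genes. A count of 0 in 10 genes does not set them apart from such shares. 5 genes were on the higher side and 5 on the lower side in miRNA-26b-/-, with a median log2 fold change of -0.03, beside 0.01 over all genes. *Dicer1* alone had libraries that did not overlap between the genotypes, 1 of 10 genes, where 11.7% of all genes did not overlap.

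The missing microRNA and its closest relative are shown because the sites searched below are defined by the seed that miR-26b-5p and miR-26a-5p share. The 3p arm of miRNA-26b has another seed, and sites for it were not searched. RefSeq places both arms of miRNA-26b on chromosome 1 of GRCm38.p6, on the forward strand, inside an intron of *Ctdsp1*, with the 5p arm at chr1:74394324-74394344. The letters are given 5′ to 3′ with the seed, bases 2 to 8, in capitals.
miR-26b-5p: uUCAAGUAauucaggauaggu
miR-26b-3p: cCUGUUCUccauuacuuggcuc
miR-26a-5p: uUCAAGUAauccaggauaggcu
miR-26a-5p, which is encoded on chromosomes 9 and 10, has the same seed and remains encoded in the miRNA-26b-/- mice. It differed from miR-26b-5p at U11C and U21C, counted from 1 at the 5′ end with the base of miR-26b-5p first, and carried 1 more base. No gene of the machinery lay on chromosome 1.

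Sites for this shared seed were searched on the sense strand of the longest annotated 3′ UTR of each gene. The full match to the seed followed by an A, TACTTGAA, is called an 8mer, and the same letters without the first T, ACTTGAA, or without the last A, TACTTGA, a weaker 7mer. A 7mer counts only where it lies in no 8mer. Of the 10 genes, 3 held an 8mer (30%), namely *Tnrc6a*, *Tnrc6b* and *Ago3*, and *Ago2* held a 7mer only. Some match, 8mer or 7mer, was held by 4 of 10 genes (40%), beside 21.4% of other tested genes and 45.6% of those whose 3′ UTR was at least as long as that of *Tnrc6a*. An 8mer was found in 4.9% of 13450 other tested genes and in 11.6% of 3313 genes whose 3′ UTR was at least 2345 bases long, the length of that of *Tnrc6a*. The median 3′ UTR of these 3313 genes was 3429 bases, shorter than those of *Tnrc6b* and *Ago3*, so they are not matched to the 10 genes in length. The 4 matches are shown in their windows of 30 bases from the GENCODE M21 transcripts of GRCm38, with the 8mer in capitals. They are shown because they mark the transcripts with a full match to the seed of miR-26b-5p.
Tnrc6a: atcagtttgaaTACTTGAAtcatgcaggcc
Tnrc6b, near the stop codon: cactcttgaaaTACTTGAAtcatgaacgcc
Tnrc6b, near the 3′ end: ttgttttcttaTACTTGAAaacacttttac
Ago3: cgaacagcgggTACTTGAAacagtgctggc
The window of *Tnrc6a* was chr7:123193090-123193119 on the forward strand, and its 8mer began at base 150 after the stop codon. Those of *Tnrc6b* were chr15:80929703-80929732 and chr15:80940329-80940358, on the forward strand. Their 8mers began at bases 238 and 10864 of a 3′ UTR of 11609 bases. The window of *Ago3* was chr4:126342190-126342219 on the reverse strand, and its 8mer began at base 3266 of a 3′ UTR of 12742 bases. A match of letters is a description and does not show that a site was bound.

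Per length, *Ago2* and *Ago1* had the highest levels of the 10 genes and *Ago3* was near the lowest. Levels were compared between genes as CPM (counts per 1000000 counts assigned to genes) divided by the kb of annotated exon and averaged over the 6 libraries. *Ago2*, the Argonaute that can cut its target, was the highest gene at 12.6 ± 2.06 (SD, n = 6), followed by *Ago1* at 11.3 ± 1.09 and *Drosha* at 7.75 ± 0.885. *Ago1* was above *Drosha* in 6 of 6 libraries, and this was the 1 step in the order at which the ranges of neighbours did not overlap. *Tnrc6a*, *Xpo5*, *Dicer1*, *Dgcr8* and *Tnrc6b* followed at 6.53, 5.74, 4.34, 4.05 and 3.66. *Ago3* and *Tarbp2* were the lowest at 2.95 ± 0.637 and 2.11 ± 0.782. The remaining neighbours kept their order in 4 or 5 of 6 libraries, so most of these steps were within the spread between libraries. The order, and the family shares below, rest on annotated exon length, and the isoforms present in aorta were not measured. *Ago3* has 16571 bp of exon and *Drosha* 5935 bp. Without the division, *Ago3* averaged 47.0 CPM among knockouts and 50.6 among controls, above *Drosha* at 42.7 and 49.3. *Ago2* and *Ago1* still had the highest means.

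**Figure D1:**
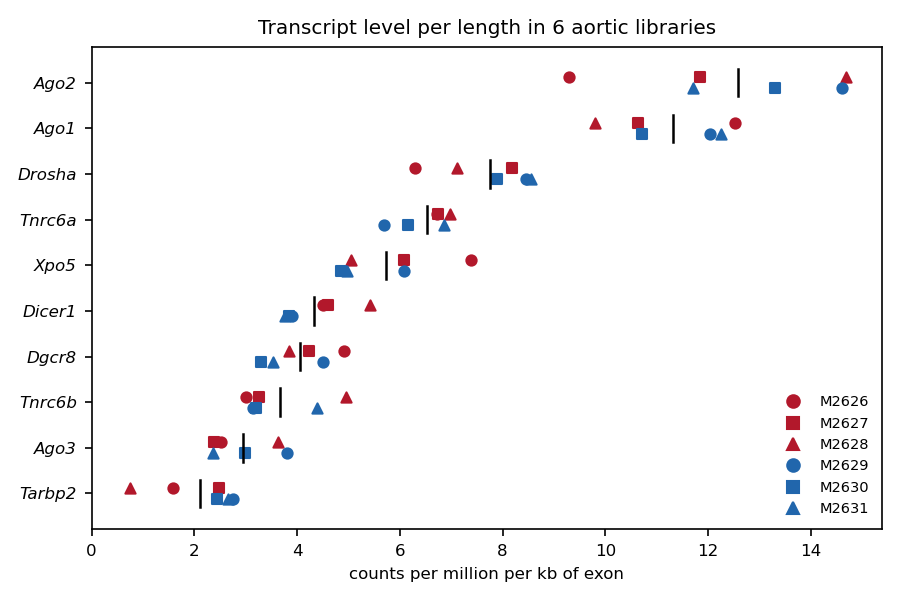
Level of each gene in CPM per kb of exon (x axis), 1 point per library, with miRNA-26b-/- libraries in red, miRNA-26b+/+ libraries in blue and the mean of the 6 libraries as a black bar. The means fall from 12.6 for Ago2 to 2.11 for Tarbp2, and only Ago1 and Drosha, as neighbours, occupy separate ranges.

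From here levels are CPM, the same unit without division by length, which compare 1 gene between libraries. For the microprocessor, *Drosha* (chr15:12824815-12935291, forward strand) measured 37.3, 48.6 and 42.2 CPM in M2626, M2627 and M2628, and 50.1, 46.9 and 50.8 CPM in M2629, M2630 and M2631. M2626 and M2628 were below every control and M2627 was inside their range. The means were 42.7 ± 5.67 and 49.3 ± 2.11 CPM (SD, n = 3), a difference of -0.22 on the log2 scale, miRNA-26b-/- minus miRNA-26b+/+ (SE, the standard error, 0.197, edgeR adjusted p = 0.910). *Dgcr8* (chr16:18253948-18289246, reverse strand) measured 37.9, 32.6 and 29.6 CPM in miRNA-26b-/- and 34.7, 25.4 and 27.1 CPM in miRNA-26b+/+. The groups overlapped, and their difference was 0.18 on the log2 scale (SE 0.233, edgeR adjusted p = 0.941). The ratio of these partners, *Drosha* to *Dgcr8* per kb, was also compared. On the log2 scale it was 0.35, 0.95 and 0.89 in miRNA-26b-/- and 0.91, 1.26 and 1.28 in miRNA-26b+/+, so that M2626 stood lowest and M2627 lay above the lowest control. The difference of -0.42 did not pass (exact permutation test, two-sided, p = 0.2, adjusted p = 0.6 over the 3 ratios tested), where 3 mice against 3 cannot go below 0.1.

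*Dgcr8* had the largest overlap of its exons with other genes among the 10. Reads were counted without strand and a read over several genes was counted for each, and 17.1% of the exon length of *Dgcr8* lay under exons of other genes, 10.7% under *Trmt2a* on the opposite strand and 4.25% under the predicted gene *Gm49776*. Its coding sequence holds the hairpin of miR-1306, whose arms are shown because their sequence is part of the message of the microprocessor subunit, with the seed in capitals from RefSeq.
miR-1306-5p: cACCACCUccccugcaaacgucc
miR-1306-3p: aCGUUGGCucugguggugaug
The 3p arm lies at chr16:18284248-18284268 and the 5p arm at chr16:18284288-18284310, on the reverse strand of GRCm38.p6. A second hairpin, *Gm24572*, lies in an exon of *Dgcr8* outside the coding sequence. Over the miR-1306 hairpin, counts were 0, 23 and 0 in miRNA-26b-/- and 0, 0 and 55 in miRNA-26b+/+. These are reads of a library of messenger RNA and do not measure the mature microRNA.

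For export and dicing, *Xpo5* (chr17:46202782-46243598, forward strand) measured 50.6, 41.7 and 34.7 CPM in miRNA-26b-/- and 41.7, 33.3 and 34.0 CPM in miRNA-26b+/+. M2626 was the highest library and the other values overlapped, with a difference of 0.20 on the log2 scale (SE 0.221, edgeR adjusted p = 0.932). *Dicer1* (chr12:104687742-104751952, reverse strand) measured 75.3, 76.9 and 90.9 CPM in miRNA-26b-/- and 65.3, 64.5 and 63.1 CPM in miRNA-26b+/+. All 3 miRNA-26b-/- libraries lay above all 3 controls, and the controls were close together. The means were 81.0 ± 8.56 and 64.3 ± 1.13 CPM, which differed by 0.32 on the log2 scale (SE 0.170) and did not pass the test (edgeR adjusted p = 0.789, with a 95% interval from -0.05 to 0.68). No base of its exons lay under another gene.

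*Tarbp2* (chr15:102518192-102523676, forward strand), whose protein holds the precursor for Dicer, had the widest spread. Its levels were 7.24, 11.3 and 3.44 CPM in miRNA-26b-/- and 12.5, 11.1 and 12.1 CPM in miRNA-26b+/+. M2628 and M2626 were below every control, and M2627 was among them. The means were 7.32 ± 3.92 and 11.9 ± 0.757 CPM, a difference of -0.68 on the log2 scale (SE 0.430, edgeR adjusted p = 0.844). Without M2627 the log2 fold change was -1.19, with an unadjusted p of 0.0344 in the fit of edgeR across all genes and an adjusted p = 0.857. These values rest on 96 to 379 counts per library, the fewest among the 10 genes. Of the runs of 25 bases in its transcripts, 17.6% also occur in other genes, most of them in the predicted gene *Gm18584*.

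**Figure D2:**
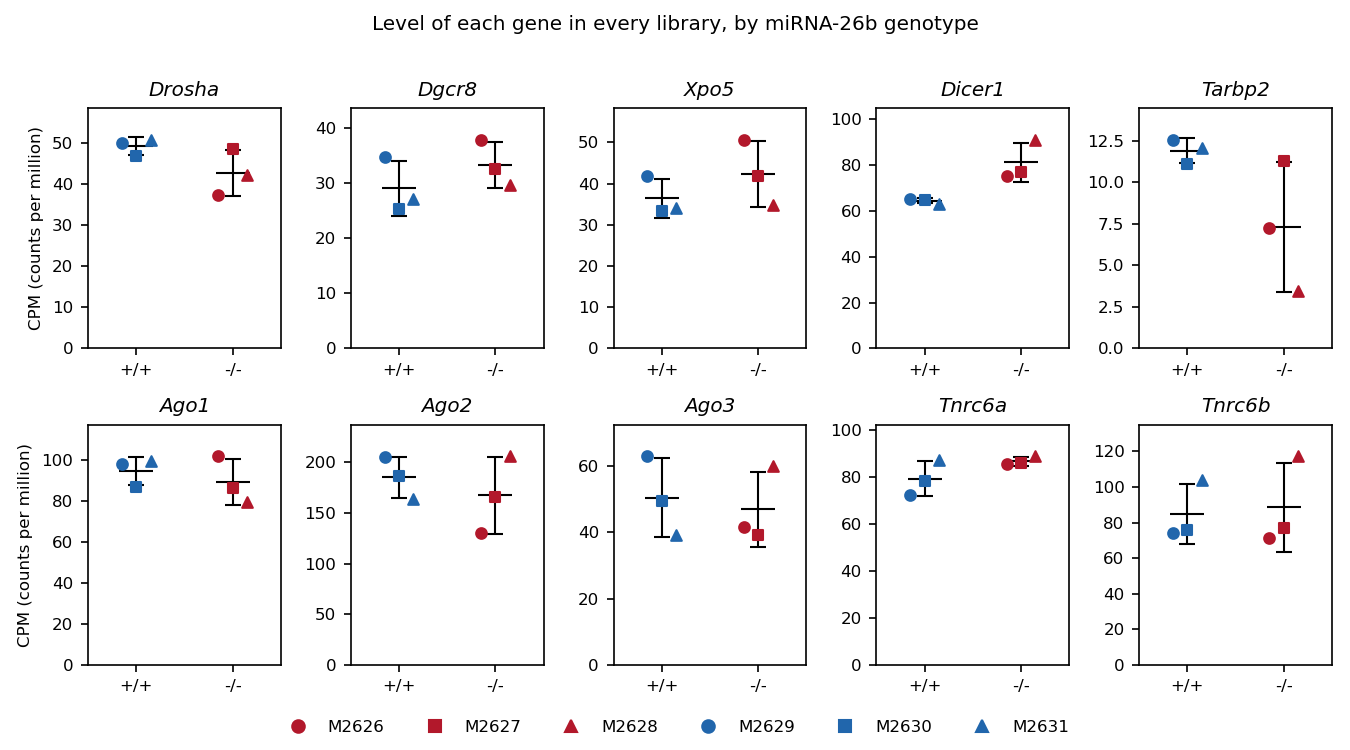
CPM of each gene (y axis, from 0) in the miRNA-26b+/+ libraries (blue) and the miRNA-26b-/- libraries (red), 1 symbol per library, with the mean and SD of each group of 3 in black. Dicer1 is the 1 gene with separate groups, 75.3 to 90.9 against 63.1 to 65.3 CPM, and Tarbp2 spreads from 3.44 to 11.3 CPM in miRNA-26b-/-.

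For the Argonautes, which hold the microRNA, *Ago1* and *Ago3* are neighbours of *Ago4* on the reverse strand of chromosome 4, in the order *Ago3*, *Ago1*, *Ago4*, with 5.46 kb between *Ago3* and *Ago1*. *Ago2* (chr15:73095844-73184935, reverse strand) measured 130.5, 166.1 and 206.1 CPM in miRNA-26b-/- and 204.9, 186.8 and 164.2 CPM in miRNA-26b+/+. M2626 was the lowest and M2628 the highest of the 6 libraries, so the controls lay inside the range of the knockouts. On the log2 scale the difference was -0.16 (SE 0.171, edgeR adjusted p = 0.931). *Ago1* (chr4:126435012-126468583) measured 101.7, 86.4 and 79.6 CPM against 97.7, 86.9 and 99.4 CPM, with M2626 highest and M2628 lowest, the reverse of *Ago2*. On the log2 scale the difference was -0.10 (SE 0.168, edgeR adjusted p = 0.960). *Ago3* (chr4:126331704-126429556) measured 41.7, 39.4 and 60.0 CPM against 63.0, 49.4 and 39.3 CPM, with both groups spread over nearly the same range and a difference of -0.12 on the log2 scale (SE 0.231, edgeR adjusted p = 0.965).

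Within the Argonaute family, per kb of exon, *Ago2* made up 36.8, 45.8 and 51.3% of the 4 transcripts in miRNA-26b-/- and 46.5, 46.5 and 42.4% in miRNA-26b+/+. The means of 44.6 ± 7.29% and 45.1 ± 2.38% lay within the spread between libraries (exact permutation test, two-sided, p = 0.8, adjusted p = 0.9). *Ago1* averaged 40.8%, *Ago3* 10.5% and *Ago4* 3.78% over the 6 libraries. The genes of a family shared little sequence, as at most 2.15% of the runs of 25 bases of a gene occurred in another gene of its family. *Ago2* shared 9.55% of its runs with other genes, most of them with the predicted gene *Gm6088*.

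For the Tnrc6 scaffolds, which recruit deadenylases, *Tnrc6a* (chr7:123123885-123195296, forward strand) was the steadiest of the 10 genes. It measured 85.4, 85.7 and 88.8 CPM in miRNA-26b-/- and 72.4, 78.3 and 87.2 CPM in miRNA-26b+/+, with 1 control inside the range of the knockouts. On the log2 scale the difference was 0.11 (SE 0.166, edgeR adjusted p = 0.953). *Tnrc6b* (chr15:80711313-80941085, forward strand) measured 71.3, 77.1 and 117.2 CPM in miRNA-26b-/- and 74.2, 75.7 and 104.0 CPM in miRNA-26b+/+. Each group had 1 high library, M2628 and M2631, and the difference was 0.04 on the log2 scale (SE 0.214, edgeR adjusted p = 0.991). *Tnrc6b* made up 21.8 ± 2.51% of the Tnrc6 transcripts per kb in miRNA-26b-/- and 22.0 ± 1.79% in miRNA-26b+/+ (exact permutation test, two-sided, p = 0.9, adjusted p = 0.9), beside averages of 39.8% for *Tnrc6a* and 38.3% for *Tnrc6c*.

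Set against the sites, the 3 genes with an 8mer had log2 fold changes of 0.11, 0.04 and -0.12, among the 4 smallest of the 10 in size. Their intervals of 95% ran from -0.24 to 0.47 for *Tnrc6a*, from -0.41 to 0.50 for *Tnrc6b* and from -0.61 to 0.37 for *Ago3*. In folds, the upper bounds were 1.38, 1.42 and 1.29. *Tarbp2* and *Dicer1*, which had the largest differences in size, held no match to the seed of miR-26b-5p in 3′ UTRs of 334 and 3851 bases. None of these differences passed the test, and the part of the sites in them was not tested. *Tarbp2* aside, the intervals of the genes lay between -0.64 and 0.68 on the log2 scale.

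**Figure D3:**
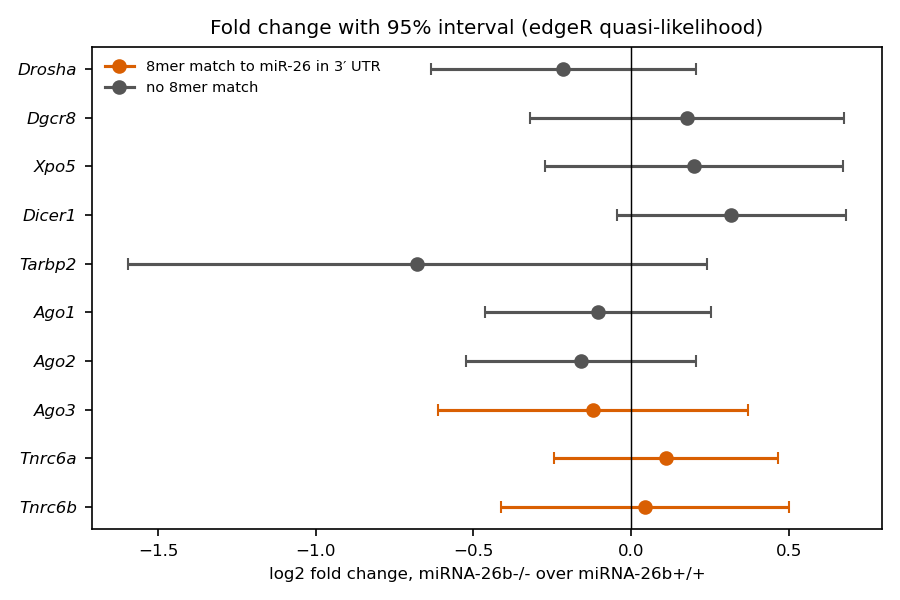
Log2 fold change of miRNA-26b-/- over miRNA-26b+/+ (x axis) for each gene, with the 95% interval derived from edgeR's quasi-likelihood F test as bars. All 10 intervals include 0, that of Dicer1 starts at -0.05, and the genes with an 8mer match (orange) lie between -0.12 and 0.11.

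Libraries differed from each other by more than counting error. The coefficient of variation over the 6 libraries was 3.75 to 11.8 times that expected from the number of counts, and these multiples cover counting error only. Its median over the 10 genes was 15.7%, beside 20.7% in 8936 genes of the same range of levels. Within the genotypes, 8 of 10 genes varied more among the miRNA-26b-/- libraries, with medians of 16.1% and 10.2%. Of the genes of the same range of levels, 58.2% did so too. M2626 and M2628 held most of the extremes. M2628 was the highest library for *Dicer1*, *Ago2*, *Tnrc6a* and *Tnrc6b* and the lowest for *Tarbp2* and *Ago1*. M2626 was the highest for *Dgcr8*, *Xpo5* and *Ago1* and the lowest for *Drosha*, *Ago2* and *Tnrc6b*.

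Among the 10 genes, the difference between these 2 miRNA-26b-/- libraries tended to rise with exon length. The comparison and the 2 libraries were chosen after the values of these genes were seen. *Tarbp2*, with 4549 bp of exon, was lower in M2628 than in M2626 by a log2 CPM of -1.07. *Xpo5*, *Dgcr8* and *Ago1*, of 6859 to 8120 bp, followed with -0.54, -0.35 and -0.35, and *Drosha*, of 5935 bp, stood apart from them at 0.18. The longer genes were higher in M2628, with 0.06 for *Tnrc6a*, 0.27 for *Dicer1*, 0.52 for *Ago3*, 0.66 for *Ago2* and 0.72 for *Tnrc6b*, the longest at 23677 bp. Spearman's rho over the 10 genes, which share these 2 libraries, was 0.83. Over 8926 other genes of the same range of levels it was 0.19, with medians from -0.14 in the shortest of 5 equal bins to 0.17 in the longest. Between the genotypes, the median log2 difference of these other genes, miRNA-26b-/- minus miRNA-26b+/+, fell from 0.07 in the shortest bin to -0.04 in the longest. The part of exon length in the fold changes of the 10 genes was not tested.

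**Figure D4:**
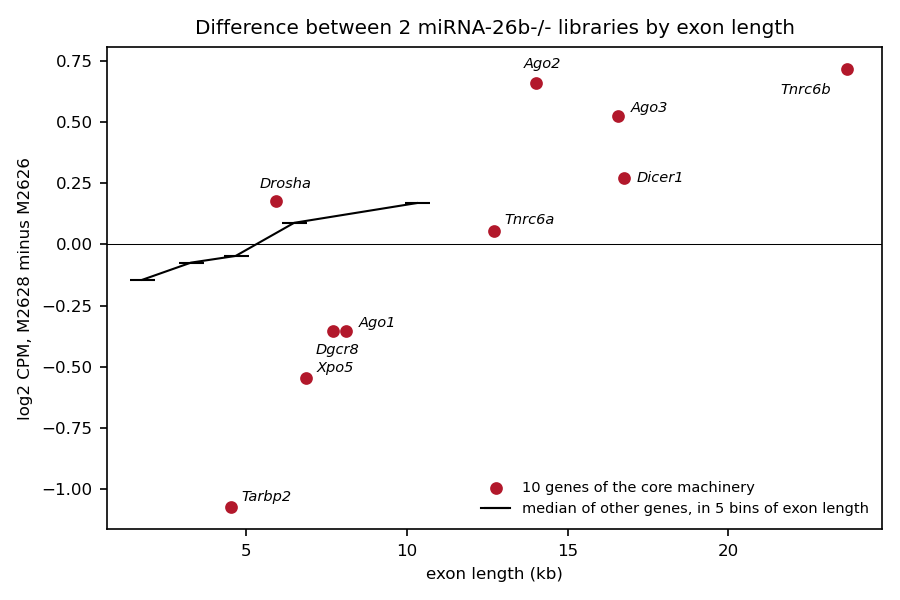
Log2 CPM in M2628 minus log2 CPM in M2626, both miRNA-26b-/- (y axis), against exon length in kb (x axis), with the 10 genes in red and the medians of the other genes in 5 bins of exon length as black ticks joined by a line. The 10 genes run from -1.07 for Tarbp2 to 0.72 for Tnrc6b, and the medians from -0.14 to 0.17.

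Other genes of the pathway were read from 5 lists, 68 genes in all, of which 65 were tested. *Lin28a*, *Lin28b* and *Trim71* had too few counts. At an unadjusted p under 0.05, 0 of 65 were higher in miRNA-26b-/- and 6 of 65 were lower. Of all genes tested, 6.47% had such a p in either direction and 3.07% were lower at that p. After adjustment with edgeR, 0 of 65 passed. The CPM of the genotypes did not overlap and were lower in miRNA-26b-/- for 9 of 65 genes, beside 5.52% of all genes, and were higher for 3 of 65, *Eri1*, *Cnot7* and *Dcp1a*, beside 6.13% of all genes. The median log2 fold change of the 65 was -0.03.

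Of the 6 lower genes, 5 belonged to the list of Argonaute loading and turnover, which holds the Hsp90 and Hsc70 chaperones that open an Argonaute to receive the duplex. 9 of its 11 tested genes were on the lower side, with a median log2 fold change of -0.35. Lower heat shock genes in these libraries were known when the list was drawn up, so its count is not independent evidence. *Hspa8*, which encodes Hsc70, measured 746.3, 586.1 and 902.5 CPM in miRNA-26b-/- and 1154, 1221 and 1121 CPM in miRNA-26b+/+. *Hsp90ab1* measured 1216, 1040 and 1245 CPM against 1648, 1634 and 1643 CPM. *Hsp90aa1* measured 164.0, 186.2 and 209.0 CPM against 331.5, 243.6 and 257.0 CPM. In all 3 chaperone genes each miRNA-26b-/- library lay below each control. Their log2 fold changes were -0.66 for *Hspa8* (SE 0.150), -0.51 for *Hsp90ab1* and -0.59 for *Hsp90aa1*, with adjusted p-values of 0.640, 0.640 and 0.731 in the fit of edgeR across all genes. With DESeq2 the adjusted p was 0.00559 for *Hspa8* and 0.00169 for *Hsp90ab1*, and without M2628 that of *Hspa8* in edgeR was 0.0132. The co-chaperones *Fkbp4* and *Ahsa1* had log2 fold changes of -0.36 and -0.35, which had an unadjusted p under 0.05 with all 6 libraries but not when M2627, M2628 or any 1 control was left out. With library sizes in place of TMM, *Ahsa1* did not have such a p with all 6 libraries either, which left 4 of the loading genes.

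The Argonaute *Ago4* had a log2 fold change of -0.68 and did not pass (adjusted p = 0.857 from edgeR). Of 30 silencing effectors, 1 was lower at an unadjusted p under 0.05, *Wtip*, a LIM-domain protein of the Ajuba family, with a log2 fold change of -0.42, which did not pass without M2627, M2629 or M2631. *Tnrc6c* had a log2 fold change of -0.01, and its 3′ UTR held 1 8mer. *Pabpc1*, the poly(A)-binding protein that Tnrc6 contacts, and the helicase *Ddx6* were, with *Wtip*, the highest of the list per kb and had log2 fold changes of -0.15 and -0.10. Of 11 microprocessor partners, 7 of 9 genes of export, dicing and tailing that were tested, and 6 genes of RNA decay, 0 passed an unadjusted p under 0.05. The highest of these per kb were the helicases *Ddx5* and *Ddx17* and *Hnrnpa2b1* with log2 fold changes of 0.04, -0.02 and -0.24. For export and dicing they were *Ran*, the GTPase that drives Exportin-5, with -0.27, *Prkra* with -0.01 and *Tent2* with 0.09. For RNA decay they were *Tsnax*, *Xrn2* and *Snd1* with 0.19, -0.11 and -0.13.

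**Figure D5:**
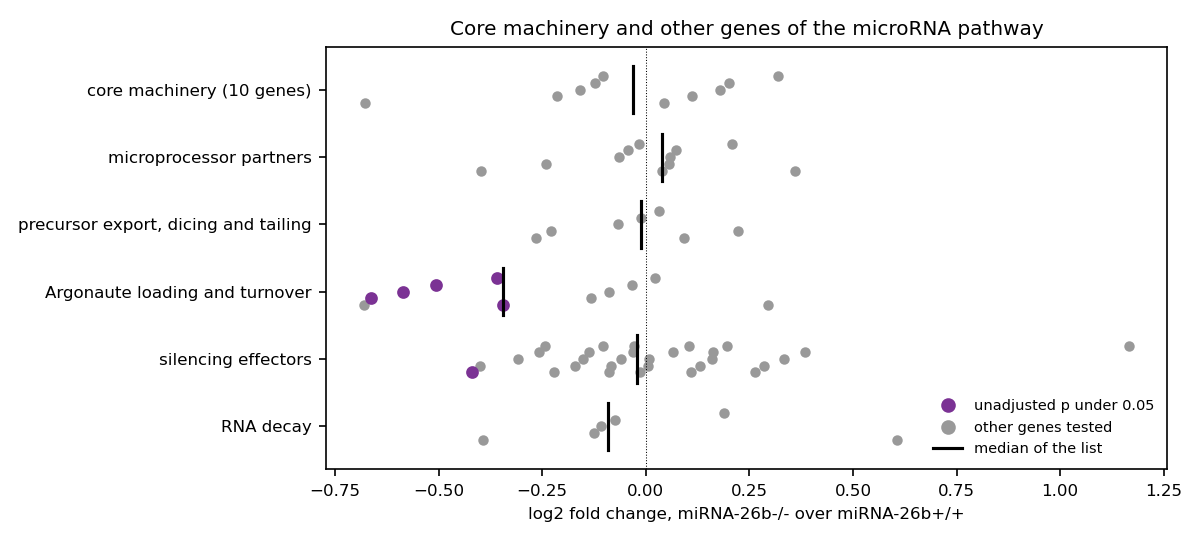
Log2 fold change of miRNA-26b-/- over miRNA-26b+/+ (x axis) for the 10 genes of the core machinery and for each tested gene of the 5 other lists, 1 point per gene with the median of each list as a black bar and genes at an unadjusted p under 0.05 in purple. The 6 purple genes all lie below 0, 5 of them in the list of Argonaute loading and turnover, whose median is -0.35, while that of the core machinery is -0.03.

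The make-up of the tissue varied between libraries, and in whole aorta fewer cells of a type and less RNA per cell cannot be told apart. The cell type label reads endothelial cells, whereas the methods describe explanted aortic arch and thoracic aorta. The 6 markers of vascular smooth muscle summed to 31457 to 39391 CPM in miRNA-26b-/- and 34579 to 41209 CPM in miRNA-26b+/+, so smooth muscle was the leading signal. The 8 endothelial markers, all detected, summed to 518.0 CPM in M2626, 527.8 CPM in M2627 and 1793 CPM in M2628, against 1257 to 1656 CPM in the controls. *Pecam1* and *Vwf* were the largest parts of this sum, at 724.1 and 610.1 CPM in M2628, and not every marker followed it. *Kdr* was lowest in M2628, at 8.92 CPM. *Erg* and *Egfl7* in M2626, at 75.1 and 38.2 CPM, lay inside the range of the controls. The 5 fibroblast and 6 macrophage markers were highest in M2628, the library with the lowest *Tarbp2*, at 7719 and 512.6 CPM, against 4194 to 5072 and 157.9 to 329.2 CPM in the rest. The 5 Schwann cell markers summed to 303.1 to 456.0 CPM in miRNA-26b-/- and 217.6 to 273.9 CPM in miRNA-26b+/+, with all 5 higher at an unadjusted p under 0.05 by edgeR. The 5 skeletal muscle markers summed to 8.49 to 83.8 CPM in miRNA-26b-/- and 2.14 to 11.1 CPM in miRNA-26b+/+, with 5 of 5 on the higher side and 4 at an unadjusted p under 0.05 by edgeR. Over all genes tested, 6.47% had such a p, higher or lower. The 5 cardiac muscle markers summed to 254.0 CPM in M2627 and 218.1 CPM in M2630, against 9.14 to 49.6 CPM in the rest. The 5 adipocyte markers summed to 274.1 to 809.0 CPM in miRNA-26b-/- and 173.3 to 547.6 CPM in miRNA-26b+/+, with 5 of 5 on the higher side. The 5 erythroid markers summed to 86.2 to 926.1 CPM in miRNA-26b-/- and 349.4 to 621.3 CPM in miRNA-26b+/+. The 5 lymphocyte markers summed to at most 4.12 CPM in a library. The 5 sympathetic neuron markers summed to 220.2 CPM in M2627 and 47.2 CPM in M2630, against 7.59 to 21.5 CPM in the rest, and without M2627 and M2630 the log2 fold change of *Tarbp2* was -1.23 and that of *Dicer1* 0.37, in a comparison of 2 mice against 2. The part of these cells in the levels of the machinery was not tested. Counts on *Mir26b* were 0 in 5 libraries and 20 in M2630 and cannot check the labels, and *Ctdsp1*, its host, had 4549 to 6121 counts in every library.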

How the data were processed

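The authors aligned the reads to GRCm38 (mm10) with STAR and deposited raw counts of reads per gene name, made with featureCounts 1.6.4 of Subread over exons, without strand and with a read over several genes counted for each of them. Per the file header the annotation was GENCODE M21, whereas the methods name M23. A deposited table of log2 CPM with the authors' own fold changes and p-values was not used.

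The filter required 2 counts in total and more than 1 CPM in 2 libraries or more. After TMM normalization, genotypes were compared by edgeR (version 4.0.16, R 4.3.3; quasi-likelihood F test, prior count 0.125), and p-values were adjusted by Benjamini-Hochberg over all genes. CPM printed here use library totals. With 1 library per mouse, the spread behind the p-values is that between libraries, in which mouse and library preparation cannot be told apart. The quasi-likelihood test also borrows spread from other genes. For *Drosha* it had 14.7 degrees of freedom, more than these libraries alone give. DESeq2 1.42.0, limma 3.58.1 (voom), other normalizations and filters, and each library left out in turn were alternatives. The earlier quasi-likelihood method, leaving out M2627 and M2630, which were high in sympathetic neuron markers, and all alternatives of the other pathway genes were chosen after seeing the data. The procedure was tested on simulated data. The sequences of microRNAs are from RefSeq, and sites, exon overlaps and runs of 25 bases are from the GENCODE M21 gene models.

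The genes and lists were chosen with earlier results of these data known. The genes named are the 10 genes, genes of the other pathway lists at an unadjusted p under 0.05 and the 3 highest per kb of each, *Mir26b* and *Ctdsp1*. *Ago4*, *Tnrc6c*, the genes that overlap or share runs with the 10, *Eri1*, *Cnot7*, *Dcp1a* and the comparison with exon length were named after their values were seen. So were the single endothelial markers *Pecam1*, *Vwf*, *Kdr*, *Erg*, *Egfl7* and *Tek*.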

Additional observations from a re-analysis of the deposited data

How the results depend on the processing

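Over 14 alternatives, the count of the 10 genes at an adjusted p under 0.05 was 0. At an unadjusted p under 0.05 it was 0 to 1 when single libraries were left out, the 1 being *Tarbp2* without M2627. With a library left out, the log2 fold change of *Ago3* ran from -0.33 without M2628 to 0.054 without M2629 and that of *Tnrc6b* from -0.20 without M2628 to 0.22 without M2631. The difference in the *Ago2* share ran from -3.81 to 3.41 percentage points and that in the *Tnrc6b* share from -1.61 to 0.80, with the extremes without M2628 and M2626. The other 8 genes kept their direction. Among the other pathway genes, *Hspa8*, *Hsp90ab1* and *Hsp90aa1* kept an unadjusted p under 0.05 in all 14. With a library left out, 0 to 3 of these genes were higher at that p, 3 to 6 were lower, and 3 to 5 of the Argonaute loading genes were lower. After adjustment 2 passed with DESeq2, *Hspa8* and *Hsp90ab1*, and 0 to 1 with a library left out, *Hspa8* without M2628. With the earlier quasi-likelihood method 1 was higher, *Eri1*. Without M2627 and M2630, 3 were lower, 3 of them loading genes. Over all genes, 1036 had an unadjusted p under 0.05, against 1692 without M2628, 686 without M2631 and 607 without M2627 and M2630. The adjusted count was 1, with 57 in DESeq2, 3 in limma voom and 82 without M2628. The cause was not tested. The spread of *Tarbp2* between libraries was 6.26 times counting error, on the fewest counts of the 10 genes.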

Other observations

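Exon length also ordered the libraries over 8926 other genes in the same range of levels, a description chosen after the values were seen. Spearman's rho between exon length and a gene's log2 level relative to the other libraries was -0.19 in M2626 and -0.09 in M2627, and 0.13 in M2628. Among the controls it was 0.06 in M2629, 0.08 in M2630 and 0.05 in M2631. The 3 controls were thus close together, with the miRNA-26b-/- libraries on either side of them.

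The 3′ UTR of *Ago4* held 1 7mer of each kind and no 8mer, and that of *Tnrc6c* held an 8mer 582 bases after the stop codon and a 7mer. The microRNA hairpins *Mir26a-1* and *Mir26a-2* had 0 counts in every library, and 1 hairpin in *Tnrc6b*, *Mir5113*, had 56, 0 and 0 counts in miRNA-26b-/- and 4, 40 and 58 counts in miRNA-26b+/+.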
